A study of Mus musculus with 12 samples.

Results

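The RNA of WT bone marrow-derived macrophages (BMDMs) that received 4-octyl itaconate (OI) and then particulate matter (PM) was compared with that of WT BMDMs that received vehicle only. The comparison uses 4 of the 12 libraries of the series, 2 from cells given OI at 0.25 mM for 2 hours before PM at 20 μg/cm² for 24 hours, and 2 from vehicle-treated cells. It covers 10970 of the 48795 genes listed, those with a CPM above 1.5 in at least 2 of the 4 libraries, where CPM is the read count relative to the size of the library. It describes the net state of OI-treated, PM-exposed cells relative to unexposed cells. No library in the series comes from cells given OI alone, so the parts that OI and PM play in a difference from vehicle cannot be told apart here.

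BMDMs are macrophages grown from bone marrow cells in medium with M-CSF, here from C57BL/6 mice without a transgene or deletion. The PM was an urban dust standard. The other 8 libraries hold WT cells given PM alone, and Acod1-/- cells, which lack the itaconate-producing enzyme, with the same 3 treatments. The labels do not say whether the 2 libraries of a group come from separate animals or cultures, so p-values measure the spread between libraries, which may be technical.

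Itaconate is made in the mitochondria of activated macrophages by ACOD1, and OI is an ester of it that enters cells. OI is an electrophile that modifies KEAP1, the protein that holds the transcription factor NRF2 for degradation. Freed NRF2 binds antioxidant response elements with small MAF proteins and turns on genes for glutathione synthesis, NADPH production, quinone reduction and iron storage. Inhaled PM is taken up by macrophages, which answer with cytokines such as TNF, IL-1β and IL-6, with chemokines, and with type I interferon-stimulated genes. BMDMs in medium with M-CSF are known to go on dividing for a time.

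The 4 libraries held between 33616577 and 36817898 counts. To compare replicates, a small constant was added to each CPM, which damps differences at low levels. So counted, no tested gene differed by 2-fold or more between the vehicle libraries, and 62 did between the OI plus PM libraries. Between the libraries of PM alone 11 genes did, and fewer did in each Acod1-/- group. The pooled spread can thus be too small for the OI plus PM libraries, and the p-values and SEs printed below too low. The differences between the OI plus PM libraries followed gene length, with a Spearman correlation of -0.63 over 10957 genes of the difference of replicate 2 minus replicate 1 with exonic length. The fold change against vehicle was also related to exonic length (rho = -0.36, across genes). The median exonic length was 3106 bases for genes that were higher after OI plus PM, 5478 for genes that were lower and 4510 for all genes tested. With each library corrected for its trend with length, 1400 of the 1709 differentially expressed genes (DEGs) described below were still called. Gapdh was at only 7.19 CPM in vehicle cells, 6 of the 13 protein genes of the mitochondrial genome had at most 1 count in each of the 4 libraries, and how reads that match several places were counted is not given in the sources used here, so genes with near-identical copies are uncertain.

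OI plus PM changed the level of 1709 genes, which is 15.6% of those tested. A gene counted as a DEG when its edgeR quasi-likelihood p, adjusted by Benjamini-Hochberg over all genes tested, was at most 0.05 and its level differed by 2-fold or more. Of the DEGs, 557 were higher (5.08% of genes tested) and 1152 were lower (10.5%). A change of 4-fold or more was seen in 161 genes that rose and 430 genes that fell, and one of 16-fold or more in 38 and 120. In every DEG the libraries of the groups did not overlap, as in 81.2% of all genes tested. Without the fold threshold, 66.0% of the genes tested passed the adjusted p, 3677 higher (33.5%) and 3568 lower (32.5%), and the median log2 fold change of all genes was 0.01. With scaling by total counts in place of TMM that median moved to -0.20 and the split of DEGs to 375 higher and 1559 lower. Without OI plus PM replicate 1, 863 genes were higher and 1475 lower.

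**Figure D1:**
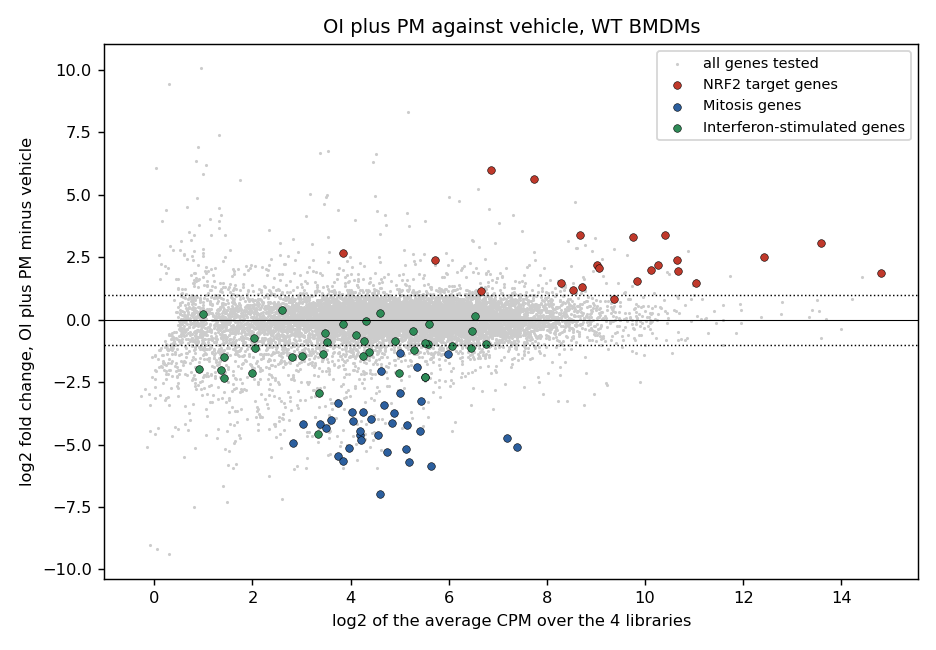
Log2 fold change of OI plus PM against vehicle (y axis, 2 libraries a group) by the log2 average CPM over the 4 libraries (x axis), with a point for each of the 10970 genes tested and dotted lines at 2-fold. The NRF2 target genes lie above zero, the mitosis genes lie below the lower dotted line, and the interferon-stimulated genes lie mostly below zero.

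Acod1, the gene of the itaconate-producing enzyme (chr14:103046977-103056573 in GRCm38), was at 1.85 and 2.5 CPM in the vehicle libraries and at 32.6 and 56.4 CPM in the OI plus PM libraries. The log2 fold change was 4.35 (SE 0.26, edgeR adjusted p = 4.84e-07). With PM alone it was at 181 and 171 CPM, and the OI plus PM level was lower than that of PM alone (log2 fold change -1.99, edgeR adjusted p = 3.80e-05). OI-treated, PM-exposed cells therefore held an intermediate Acod1 level, above vehicle and below PM alone, without overlap between the 3 groups.

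NRF2 target genes rose almost as a whole. Of 23 genes on the list, all tested, 22 rose and none fell, where 5.08% of all genes rose, with a median log2 fold change of 2.17 against 0.01 for all genes and a range from 0.81 to 5.99. Only Tkt, transketolase, stayed under the fold threshold, at 482 and 476 CPM in vehicle cells and 770.0 and 915 CPM after OI plus PM (log2 fold change 0.81, edgeR adjusted p = 2.24e-05). Under the alternative settings 20 to 22 members rose.

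Nqo1, the quinone reductase (chr8:107388225-107403206), showed the largest increase of the list. It was at 3.73 and 3.47 CPM in the vehicle libraries, at 46.9 and 44.9 CPM with PM alone and at 209.8 and 248 CPM with OI plus PM. The increase over vehicle was 5.99 on the log2 scale (SE 0.11, edgeR adjusted p = 6.64e-10), and over PM alone it was 2.32 (edgeR adjusted p = 2.41e-08). Slc7a11, the cystine transporter that feeds glutathione synthesis, rose from 9.14 and 7.99 CPM to 442 and 398 CPM (log2 fold change 5.62, SE 0.18). Gclc and Gclm, the catalytic and modifier subunits of the enzyme that makes the first step of glutathione, went together. Gclc was at 72.5 and 67.4 CPM in vehicle cells and at 763 and 722 CPM after OI plus PM (log2 fold change 3.41, SE 0.07). Gclm (chr3:122245557-122270732) was at 163 and 148 CPM and at 1508 and 1618 CPM (log2 fold change 3.33, SE 0.07, edgeR adjusted p = 8.97e-10), and its exons overlap 2 predicted genes.

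Hmox1, which breaks down heme (chr8:75093621-75100589), rose from 1624 and 1683 CPM to 8428 and 10277 CPM (log2 fold change 2.5, SE 0.10, edgeR adjusted p = 1.95e-08), with 3369.6 and 3790.1 CPM for PM alone. The peroxide-handling enzymes Srxn1 and Prdx1 rose by 3.40 and 3.08 on the log2 scale. The ferritin subunits, which store iron, rose too, Fth1 by 1.88 from 12096 and 12589 CPM and Ftl1 by 1.46. Of the NADPH-producing enzymes, Pgd rose by 1.96, Me1 by 2.69 and G6pdx by 1.20, which was 0.99 with scaling by total counts. Levels of these genes with PM alone lay between those of the other groups. For all 23 list members the OI plus PM level was above that of PM alone, with an edgeR adjusted p of at most 0.033. The share of all genes that passed this comparison is not given here, so the count describes the list only.

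Most regulators of NRF2 stayed under the fold threshold. Nfe2l2, which encodes NRF2 (chr2:75675513-75704641), was at 297 and 301 CPM in vehicle cells and at 348 and 366 CPM after OI plus PM, a log2 fold change of 0.25 (SE 0.06, edgeR adjusted p = 0.00305) that is under the fold threshold. Keap1 had a log2 fold change of 0.33 and Bach1, a repressor at the same elements, one of 0.06 (edgeR adjusted p = 0.795). The small MAF genes Mafg and Mafk had log2 fold changes of 0.88 (edgeR adjusted p = 1.75e-06) and 0.59 (edgeR adjusted p = 5.31e-05), so that 5 of 6 regulators passed the adjusted p and were higher, as were 33.5% of all genes. Of the 6, 1 was a DEG, or 16.7% against 5.08% of all genes, the small MAF gene Maff, which rose from 2.79 and 3.90 CPM to 11.9 and 17.1 CPM (log2 fold change 2.11, SE 0.19).

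The promoters of NRF2 target genes are shown because the factor binds a known sequence there. The letters TGANTCAGC, the site of NRF2 with a small MAF protein, were searched on both strands in windows from 250 bases before to 50 after each annotated start (RefSeq, GRCm38.p6). Windows were found for 18 of the 23 tested list members, and 4 of these genes had a match, against 1.19% of all 32851 windows, 1.29% of the 8671 tested genes with a window and 3.71% of the 431 genes that were higher. With the looser core TGACNNNGC, which holds part of the same sites, 7 of the 18 genes had a match, against 12.4% of all windows, 17.3% of tested genes and 20.4% of the genes that were higher. The windows of the 3 list members with a match to the longer site and the largest increases are Srxn1 (chr2:152105274-152105573, plus strand), Prdx1 (chr4:116685349-116685648, plus strand) and Me1 (chr9:86695865-86696164, minus strand), with the match in capitals.
Srxn1: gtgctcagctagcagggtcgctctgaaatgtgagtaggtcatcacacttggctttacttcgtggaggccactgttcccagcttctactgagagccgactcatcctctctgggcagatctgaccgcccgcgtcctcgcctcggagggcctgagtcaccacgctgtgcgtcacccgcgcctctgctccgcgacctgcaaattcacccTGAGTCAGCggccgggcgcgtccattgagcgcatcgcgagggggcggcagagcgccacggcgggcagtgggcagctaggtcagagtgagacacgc
Prdx1: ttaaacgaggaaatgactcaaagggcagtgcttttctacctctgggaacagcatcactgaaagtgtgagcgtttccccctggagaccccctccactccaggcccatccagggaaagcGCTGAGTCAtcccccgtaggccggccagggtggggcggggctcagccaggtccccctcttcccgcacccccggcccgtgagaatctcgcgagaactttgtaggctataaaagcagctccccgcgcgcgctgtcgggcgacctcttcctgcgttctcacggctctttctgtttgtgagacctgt
Me1: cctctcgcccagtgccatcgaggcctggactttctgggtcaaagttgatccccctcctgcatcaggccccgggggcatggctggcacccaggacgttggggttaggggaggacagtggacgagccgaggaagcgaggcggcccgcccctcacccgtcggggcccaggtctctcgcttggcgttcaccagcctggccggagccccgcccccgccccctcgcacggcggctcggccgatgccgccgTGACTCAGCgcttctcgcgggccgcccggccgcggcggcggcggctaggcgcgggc

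Enzymes that make, use or break down glutathione rose in part. Of 26 glutathione enzyme genes, 23 were tested, 11 rose and 1 fell, against 5.08% and 10.5% of all genes, with a median log2 fold change of 0.80. Gsta3, a glutathione transferase, rose from 10.8 and 9.47 CPM to 186 and 247 CPM (log2 fold change 4.42, SE 0.16). Gss, glutathione synthetase, rose from 16.6 and 16.8 CPM to 204 and 280.1 CPM (log2 fold change 3.86, SE 0.14), and its exons overlap those of Acss2. Gsta4 had 2 counts in the vehicle libraries together and 229 in the OI plus PM libraries, a ratio of 138 with a 95% counting interval from 37.9 to 1149.8. Both counts were in vehicle replicate 1, and without replicate 2 the log2 fold change was 5.99 in place of 6.93. Without replicate 1 the vehicle level rests on 0 counts. Gpx3, a secreted peroxidase, was the member that fell, from 12.3 and 12.9 CPM to 3.18 and 3.21 CPM (log2 fold change -1.98, SE 0.09). Gstp1 rose by 1.86, and its near-identical copy Gstp2 was listed at 0, so the split of reads between them is uncertain.

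Genes of cell division had the lowest medians of the lists. All 36 mitosis genes fell, with a median log2 fold change of -4.20 and a range from -6.98 to -1.35. Of 38 DNA replication genes 30 fell and none rose, with a median of -2.08. The background is 10.5% of genes tested that were lower. All 36 mitosis genes fell without either of the OI plus PM libraries and under the length correction, and the filter of more than 1.5 CPM in all 4 libraries left 20 of them, since many were close to 0 after OI plus PM.

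Cenpf, a kinetochore protein (chr1:189640606-189688086), was at 50.3 and 46.0 CPM in the vehicle libraries and at 0.479 and 0.267 CPM in the OI plus PM libraries, a log2 fold change of -6.98 (SE 0.26, edgeR adjusted p = 1.51e-08). With PM alone it was at 19.9 and 16.2 CPM. Ccna2, cyclin A2 (chr3:36564865-36572150), fell from 95.4 and 101 CPM to 1.59 and 1.81 CPM (log2 fold change -5.85, SE 0.11, edgeR adjusted p = 6.64e-10), with 63.8 and 65.7 CPM for PM alone. Kif11, the motor that separates spindle poles (chr19:37376403-37421859), fell from 71.7 and 71.5 CPM to 1.5 and 1.2 CPM (log2 fold change -5.72, SE 0.12). Among WT libraries those of OI plus PM were the lowest in these genes, and the PM libraries lay between them and vehicle. In Acod1-/- cells the same contrast gave -6.98 for Cenpf, -6.08 for Ccna2 and -5.23 for Kif11. Mki67, the antigen used to mark cycling cells, went from 334 and 323 CPM to 11.6 and 7.29 CPM (log2 fold change -5.12, SE 0.19).

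Among replication genes the largest decreases were in Tk1, thymidine kinase, at 28 and 29.3 CPM in vehicle cells and 0.599 and 0.535 CPM after OI plus PM (log2 fold change -5.65, SE 0.20), Uhrf1, which maintains DNA methylation (-5.23), and Pole, a replicative polymerase (-5.02). For all 3 genes the levels with PM alone were near those of vehicle, for Tk1 26.4 and 33.3 CPM. Pcna, the polymerase clamp, had a log2 fold change of only -0.42, and E2f1, which drives entry into S phase, one of -0.49. E2f7, a repressor in the same family (chr10:110745439-110787384), had 922 counts in the vehicle libraries and 5 in the OI plus PM libraries, a ratio of 152.5 with a counting interval from 65.1 to 471. Of 18 p53 target genes tested, 1 rose and 1 fell, shares near or under the 5.08% and 10.5% of all genes, and Cdkn1a, the p21 inhibitor of the cell cycle, had a log2 fold change of 0.43 (322 CPM to 435 CPM on average).

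Of the mitosis and replication lists, only Cenpf, Ccna2 and Kif11 were among the 10 largest decreases in DEGs averaging 5 CPM or more. The others were E2f7, the collagen Col14a1, and Kif14 and Cit, which act in cytokinesis. Knl1, a kinetochore scaffold, Esco2, a cohesin acetyltransferase, and Pclaf, a PCNA partner, made up the rest. Pclaf was at 45.2 and 45.7 CPM in vehicle cells, 40.1 and 40.0 CPM with PM alone and 0.719 and 0.735 CPM with OI plus PM (log2 fold change -5.96, SE 0.11). Esco2 was at 16.3 and 17.4 CPM and at 0.270 and 0.267 CPM (-5.95, SE 0.16). Col14a1 had 762 counts in the vehicle libraries and 8 in those of OI plus PM, all 8 in replicate 1, a ratio of 78.8 with a counting interval from 39.8 to 183. The log2 fold change was -6.26, and -5.36 without replicate 2. In bulk RNA, fewer cells in division and less RNA per cell cannot be told apart.

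Promoters of mitosis genes are shown because many hold the cell cycle homology region, a site of the DREAM and MuvB complexes. The letters TTTGAA, searched on both strands, were found in the windows of 23 of 30 mitosis genes with a window, in 3 of 30 replication genes, in 17.9% of all windows, in 14.3% of tested genes and in 24.9% of the genes that were lower. The windows of the 3 mitosis genes with a match and the largest decreases are Cenpf (chr1:189688037-189688336, minus strand), Kif11 (chr19:37376132-37376431, plus strand) and Kif4 (chrX:100625815-100626114, plus strand), with the match in capitals.
Cenpf: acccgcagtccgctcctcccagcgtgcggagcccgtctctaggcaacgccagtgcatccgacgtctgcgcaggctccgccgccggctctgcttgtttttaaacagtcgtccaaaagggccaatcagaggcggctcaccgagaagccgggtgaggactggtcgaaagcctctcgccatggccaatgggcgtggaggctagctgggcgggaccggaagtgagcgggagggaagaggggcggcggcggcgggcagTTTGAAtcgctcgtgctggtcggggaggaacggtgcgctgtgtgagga
Kif11: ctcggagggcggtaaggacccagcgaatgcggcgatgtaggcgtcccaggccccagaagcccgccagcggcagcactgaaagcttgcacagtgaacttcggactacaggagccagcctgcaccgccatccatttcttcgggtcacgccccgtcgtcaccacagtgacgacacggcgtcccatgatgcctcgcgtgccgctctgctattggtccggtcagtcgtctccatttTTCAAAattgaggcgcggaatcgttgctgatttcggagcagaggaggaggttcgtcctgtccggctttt
Kif4: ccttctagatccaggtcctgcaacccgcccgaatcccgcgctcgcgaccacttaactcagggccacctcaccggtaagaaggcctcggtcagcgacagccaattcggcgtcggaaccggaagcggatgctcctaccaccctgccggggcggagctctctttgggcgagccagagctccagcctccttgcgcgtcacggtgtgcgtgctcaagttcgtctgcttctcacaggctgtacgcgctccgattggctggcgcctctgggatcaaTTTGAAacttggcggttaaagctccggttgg

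**Figure D2:**
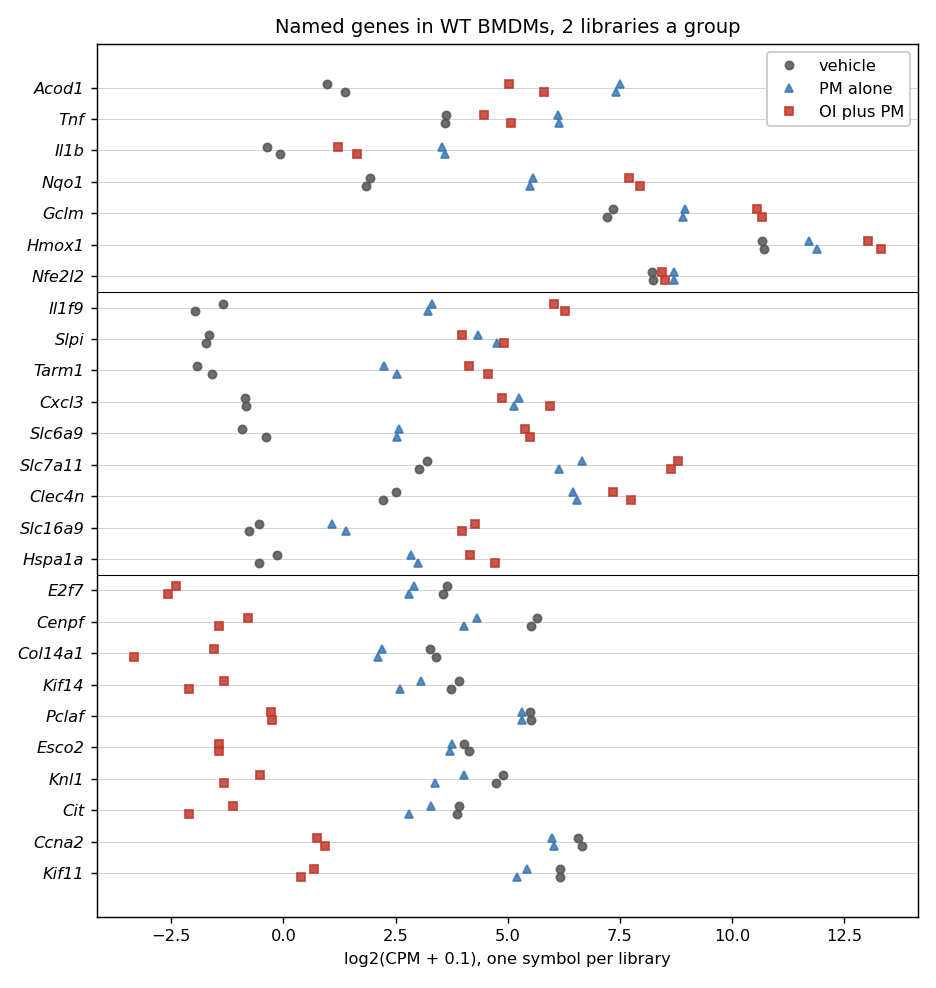
Levels of 26 named genes as log2(CPM + 0.1), with a symbol for each library of WT BMDMs given vehicle (grey circles), PM alone (blue triangles) or OI plus PM (red squares). From top to bottom stand 7 genes measured or named in the study, 9 of the largest increases and the 10 largest decreases, and in the last block the red symbols lie apart at the low end while the blue ones lie closer to the grey ones.

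Of 36 interferon-stimulated genes tested, 18 were lower in OI-treated, PM-exposed cells than in cells that had seen neither, against 10.5% of all genes, none was higher and 18 were not called. The median log2 fold change was -1.03. The number that fell was 13 with CPM above 1.5 in all 4 libraries and 24 with scaling by total counts. Without either OI plus PM library 18 or 20 fell. Rtp4, a chaperone induced by interferon, was at 18.3 and 20.5 CPM in vehicle cells and at 0.988 and 0.635 CPM after OI plus PM (log2 fold change -4.56, SE 0.15, edgeR adjusted p = 6.22e-09), with 81.1 and 78.9 CPM for PM alone. Oas2, which senses double-stranded RNA, fell from 18.4 and 17.8 CPM to 2.34 and 2.37 CPM (log2 fold change -2.94, SE 0.16), and Mx1, an antiviral GTPase, from 4.34 and 4.59 CPM to 0.809 and 0.969 CPM (-2.33, SE 0.15). The PM libraries were the highest of the 3 groups in each of these genes, at 48.2 and 40.6 CPM for Oas2 and 19.4 and 19.3 CPM for Mx1. Isg15 (log2 fold change 0.39, edgeR adjusted p = 0.065), Rsad2 (-0.05) and Irf7 (-0.52) were among those under the threshold. For Rsad2 the levels were 19.9 and 20.4 CPM in vehicle cells, 99.3 and 117 CPM with PM alone and 21.5 and 17.4 CPM with OI plus PM.

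The interferon-stimulated response element is shown in 3 promoters because members of this list share it. The letters GAAA, any 2 bases and again GAAA, searched on both strands, were found in the windows of 16 of 26 list members with a window, in 3.44% of all windows, in 3.85% of tested genes, in 6.42% of the genes that were lower and in 2.32% of those that were higher. The windows of the 3 list members with a match and the largest decreases are Gbp3 (chr3:142559794-142560093, plus strand), Ifit1 (chr19:34640639-34640938, plus strand) and Ifit3 (chr19:34583279-34583578, plus strand). In each, 2 matches are in capitals, and in Gbp3 they overlap.
Gbp3: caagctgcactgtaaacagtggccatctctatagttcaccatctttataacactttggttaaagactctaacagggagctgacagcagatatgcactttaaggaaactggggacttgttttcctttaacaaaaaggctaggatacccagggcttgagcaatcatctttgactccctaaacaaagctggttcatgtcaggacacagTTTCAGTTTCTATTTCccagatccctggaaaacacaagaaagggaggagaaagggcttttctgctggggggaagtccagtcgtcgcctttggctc
Ifit1: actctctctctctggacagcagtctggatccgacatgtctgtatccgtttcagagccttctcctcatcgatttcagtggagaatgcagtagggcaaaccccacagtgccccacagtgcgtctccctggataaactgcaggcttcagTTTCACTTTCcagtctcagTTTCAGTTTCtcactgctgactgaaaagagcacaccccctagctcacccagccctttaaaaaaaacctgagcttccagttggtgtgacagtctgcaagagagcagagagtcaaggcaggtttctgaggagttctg
Ifit3: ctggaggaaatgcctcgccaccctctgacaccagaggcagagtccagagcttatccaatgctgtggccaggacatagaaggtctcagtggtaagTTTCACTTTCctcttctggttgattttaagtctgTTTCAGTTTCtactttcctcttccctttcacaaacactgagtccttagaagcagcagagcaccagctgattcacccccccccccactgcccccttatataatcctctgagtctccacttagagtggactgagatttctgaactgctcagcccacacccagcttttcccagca

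Cytokine and chemokine genes went in both directions. Of 29 tested of 45 listed, 8 rose and 7 fell (27.6% and 24.1%, against 5.08% and 10.5% of all genes), with a median log2 fold change of 0.09, and the filter of 1.5 CPM in all 4 libraries left 4 and 4. Tnf (chr17:35199381-35202007) was at 12.1 and 12 CPM in vehicle cells, 69.2 and 70.5 CPM with PM alone and 22.0 and 33.5 CPM with OI plus PM. The increase over vehicle was 1.20 (SE 0.16, edgeR adjusted p = 0.000145), and it went below 2-fold with scaling by total counts, with the length correction and without OI plus PM replicate 2, where the lowest log2 fold change was 0.81. Il1b (chr2:129364570-129371139) was at 0.670 and 0.842 CPM in vehicle cells, 11.5 and 12 CPM with PM alone and 2.22 and 3.01 CPM with OI plus PM (log2 fold change over vehicle 1.77, SE 0.21, edgeR adjusted p = 6.81e-05), and its exons overlap those of the antisense gene Il1bos. Il6 had 1 count in the 4 libraries together and was not tested. Both Tnf and Il1b were thus above vehicle and below PM alone, by 1.34 and 2.18 on the log2 scale under PM alone (edgeR adjusted p = 7.10e-05 and 1.81e-06).

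The neutrophil-attracting chemokines Cxcl1, Cxcl2 and Cxcl3 rose over vehicle, and their difference from PM alone did not pass the test. For Cxcl1 it was -0.42 (edgeR adjusted p = 0.106), and with the replicate block -0.44 (edgeR adjusted p = 0.0358). Cxcl3 was at 0.456 and 0.459 CPM in vehicle cells, 38.2 and 35.0 CPM with PM alone and 29.4 and 61.9 CPM with OI plus PM (log2 fold change over vehicle 6.63, SE 0.43, or 5.99 without OI plus PM replicate 2, and over PM alone 0.32, SE 0.27, edgeR adjusted p = 0.368). Cxcl2 was at 3.43 and 4.87 CPM in vehicle cells and 88.2 and 161 CPM with OI plus PM (4.90, SE 0.28), and Cxcl1 rose by 5.61 (SE 0.37). In these genes the 2 OI plus PM libraries lay on both sides of the PM libraries or, for Cxcl1, just under them.

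Ccl2, Ccl7 and Ccl12, which attract monocytes, fell. Ccl2 was at 119.8 and 136 CPM in vehicle cells, 107 and 137 CPM with PM alone and 4.64 and 7.09 CPM with OI plus PM (log2 fold change -4.45, SE 0.19, edgeR adjusted p = 3.44e-08). Ccl7 was at 38.3 and 43.0 CPM in vehicle cells and 0.809 and 1.6 CPM with OI plus PM (-5.09, SE 0.23). Ccl12 had 205 counts in the vehicle libraries and 8 in the OI plus PM libraries, a ratio of 21.2 with a counting interval from 10.6 to 49.8. Of the 8 counts, 7 were in replicate 1, and the log2 fold change was -6.18 without it and -3.65 without replicate 2. These 3 genes lie near each other on chromosome 11, and in all of them the PM libraries were close to vehicle. Ccl3 had a log2 fold change of 0.01 (SE 0.17). Among the other members of the list, Ccl6, Tnfsf13b, Ccl4 and Il1rn were lower by 2.64, 2.00, 1.80 and 1.27, and Pf4, Il1a and Ccl5 higher by 1.95, 1.93 and 1.17. The call of Ccl5 was lost with scaling by total counts, with the length correction, with or without the block, and without OI plus PM replicate 2.

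Of 22 NF-κB feedback genes tested 6 rose and 1 fell, or 27.3% and 4.55% against 5.08% and 10.5% of all genes. Ier3, an early response gene, rose from 9.95 and 9.72 CPM to 28.3 and 42.9 CPM (log2 fold change 1.85, SE 0.17), Nfkbib, an inhibitor of NF-κB, by 1.41 and Nfkbie, another, by 1.40. The costimulatory receptor Cd40 was lower by the threshold, at 9.14 and 10.4 CPM and 3.86 and 5.52 CPM (log2 fold change -1.07, SE 0.16). The count of 6 went to 3 with scaling by total counts and without OI plus PM replicate 2, and the call of Cd40 was lost without vehicle replicate 2 and without OI plus PM replicate 1.

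The complement genes C1qa, C1qb and C1qc, whose products form C1q and tag dying cells for uptake, fell together. C1qa was at 158 and 160.5 CPM in vehicle cells, 135 and 172 CPM with PM alone and 13.8 and 16.3 CPM with OI plus PM (log2 fold change -3.40, SE 0.13, edgeR adjusted p = 2.12e-08). C1qc fell by 3.27 and C1qb by 2.97 on the log2 scale. Of 10 complement genes tested 5 fell, 1 rose and 4 were not called, against 10.5% and 5.08% of all genes. The riser was C3, from 3.57 and 3.55 CPM to 8.12 and 8.19 CPM (log2 fold change 1.20, SE 0.12), which stood at 85.6 and 71.3 CPM with PM alone and lost the call with scaling by total counts.

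Receptors for particles, microbes and dying cells were split. Of 40 tested, 6 rose and 12 fell, against 5.08% and 10.5% of all genes, with a median log2 fold change of -0.22. The C-type lectin Clec4n (Dectin-2) rose from 5.58 and 4.54 CPM to 164 and 214 CPM (log2 fold change 5.22, SE 0.15, edgeR adjusted p = 3.04e-09), the lectin-like Olr1 by 2.81 from 0.349 and 0.357 CPM, and Clec4d by 2.76 from 503 and 469 CPM. The mannose receptor Mrc1 fell from 459 and 402 CPM to 65.3 and 43.6 CPM (-2.98, SE 0.18), the hemoglobin scavenger receptor Cd163 by 2.57, and the scavenger receptor Stab1 from 1046 and 968 CPM to 201 and 147 CPM (-2.53, SE 0.13). Marco, a scavenger receptor for inhaled particles, was at 3.11 and 2.63 CPM in vehicle cells, at 137 and 157 CPM with PM alone and at 3.27 and 4.51 CPM with OI plus PM, a log2 fold change over vehicle of 0.43 (SE 0.18, edgeR adjusted p = 0.056) that did not pass the test. It was named after its values were seen.

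The labelled cell type was checked on 22 macrophage markers, all of which were tested. Csf1r, the M-CSF receptor, was at 1044 and 998 CPM in vehicle cells and 1253 and 1231 CPM after OI plus PM, Cd68 at 1396 and 1425 CPM and at 1709 and 1837 CPM, and Lyz2 at 10075 and 9967 CPM and at 9778 and 11741 CPM. None of these 3 was a DEG. Of the 22 markers 5 fell and 1 rose, or 22.7% and 4.55% against 10.5% and 5.08% of all genes. Among those that fell were Cx3cr1, the fractalkine receptor, from 21.2 and 25.7 CPM to 0.479 and 0.635 CPM (log2 fold change -5.39, SE 0.22), Ccr2, the receptor for CCL2, from 10.9 and 10.8 CPM to 0.779 and 0.669 CPM (-3.90, SE 0.18), Maf (-2.68), a transcription factor of mature macrophages, and Aif1 (-2.5). Maf was at 323 and 318 CPM in vehicle cells, 230.3 and 212.2 CPM with PM alone and 55.8 and 44.0 CPM with OI plus PM. Csf2rb, a subunit of the GM-CSF receptor, rose by 1.45 to the level of PM alone.

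Markers of other cells were at or near 0 with few exceptions. The summed level of 12 neutrophil markers was 63.1 and 64.2 CPM in vehicle cells and 436 and 398 CPM after OI plus PM, and nearly all of it came from Mmp8 and S100a8, which rose by 2.72 and 3.44 on the log2 scale, the latter by 2.83 without OI plus PM replicate 2. Ly6g had no count, and Elane, Mpo, Camp and Retnlg had at most 3 in any of the 4 libraries. The 9 B cell markers summed to 22.4 and 19.2 CPM in vehicle cells and to 136 and 187 CPM after OI plus PM, through Ighm, which rose from 19.5 and 15.4 CPM to 134 and 185 CPM (log2 fold change 3.19, SE 0.17), while Cd79a and Ms4a1 had at most 2 in any library. Cd79b fell by 1.57. The summed levels of dendritic, T and NK, stromal, erythroid and mast cell markers were at most 2.76 CPM in each of the 4 libraries.

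**Figure D3:**
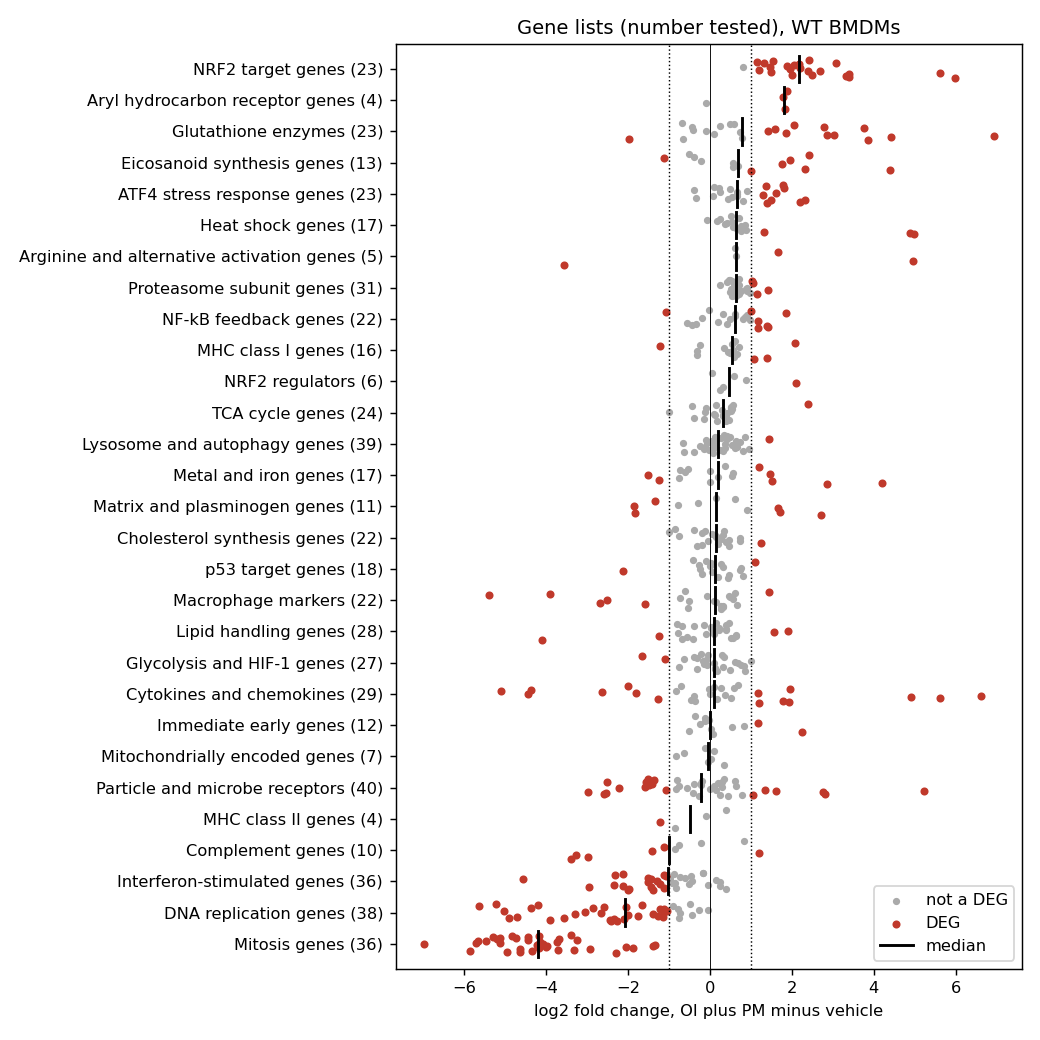
Log2 fold change of OI plus PM against vehicle for the tested members of 29 gene lists (number tested in brackets), with a point for each gene, DEGs in red, other genes in grey, the median as a black bar and dotted lines at 2-fold. The lists are ordered by their median, from NRF2 target genes at 2.17 to mitosis genes at -4.20.

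Of 23 genes of the ATF4 stress response tested 9 rose and none fell, against 5.08% and 10.5% of all genes, with a median of 0.67 and a range of 9 to 10 over the alternative settings. Trib3, a feedback kinase, rose from 8.42 and 7.83 CPM to 34.3 and 46.6 CPM (log2 fold change 2.31, SE 0.14), Ddit3 (CHOP) from 17.4 and 20.4 CPM to 66.7 and 108 CPM (2.20, SE 0.20), and Cebpb, a partner in the response, by 1.82. Ddit3 exons overlap those of Mars. Asns, asparagine synthetase, was named after its values were seen, since PM alone did not raise it. It was at 48.8 and 56.5 CPM in vehicle cells, 40.8 and 44.8 CPM with PM alone and 126 and 168 CPM with OI plus PM. Of 17 heat shock genes 3 rose, which is 17.6% against 5.08% of all genes: Hspa1a, from 0.804 and 0.587 CPM to 17.9 and 26.2 CPM (log2 fold change 4.98, SE 0.23), and Hspa1b by 4.89, near-identical copies whose reads cannot be told apart with certainty, and Hsph1 by 1.31.

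All 31 proteasome subunit genes passed the adjusted p without the fold threshold and were higher, as were 33.5% of all genes tested, with a median of 0.64 and a range from 0.25 to 1.42. Of these, 4 were DEGs, or 12.9% against 5.08% of all genes. Psmb5, a catalytic subunit, rose most, from 26.1 and 25.7 CPM to 53.8 and 84.8 CPM (log2 fold change 1.42, SE 0.18), and lost the call with the length correction, at 0.89 with or without the block. The number of DEGs ran from 1 to 9 with the scaling, the length correction and the OI plus PM library left out.

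Of 17 metal and iron genes tested 5 rose, against 5.08% of all genes, and 2 fell, a share of 11.8% that is near the 10.5% of all genes. The metallothioneins Mt2 and Mt1 rose from 15.9 and 16.8 CPM to 195.2 and 405 CPM (log2 fold change 4.20, SE 0.31, or 3.58 without OI plus PM replicate 2) and from 93.3 and 96.2 CPM to 476 and 893 CPM (2.85, SE 0.25), and the zinc exporter Slc30a1 by 1.5. The transferrin receptor Tfrc fell by 1.5 from 212.8 and 201 CPM, and the metal importer Slc39a8 by 1.25. Of 4 tested genes of the aryl hydrocarbon receptor, the sensor of polycyclic hydrocarbons, 3 rose: Tiparp by 1.88 from 45.5 and 47.2 CPM, Ahr by 1.84 and Ahrr by 1.78. Cyp1a1, its best known target, had 2 and 7 counts in the OI plus PM libraries and none in vehicle cells, and was not tested.

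Few genes of the glycolysis, TCA cycle, cholesterol, lysosome and lipid lists were DEGs. In these lists the shares of members that rose were at most 7.14% and of those that fell at most 7.41%. These are near or under the 5.08% and 10.5% of all genes. Of 5 arginine and alternative activation genes tested 2 rose and 1 fell, or 40% and 20%. Ass1, which makes argininosuccinate from citrulline, rose from 1.29 and 1.53 CPM to 34.4 and 53.2 CPM (4.95, SE 0.23), and Odc1, of polyamine synthesis, by 1.67. Abca1, the cholesterol exporter, fell from 145 and 119.6 CPM to 9.26 and 6.08 CPM (-4.10, SE 0.22), with 152 and 105 CPM for PM alone, and Pltp, a phospholipid transfer protein whose exons overlap those of Ctsa, fell by 1.24. Angptl4, an inhibitor of lipoprotein lipase, rose by 1.91 and the nuclear receptor Ppard by 1.57, and the other 24 of 28 lipid handling genes tested were not called. Pcx, pyruvate carboxylase, rose by 2.40 as the single DEG of 24 TCA cycle genes. Of 27 glycolysis and HIF-1 genes 2 fell, Ankrd37 by 1.66 and Pdk1 by 1.09, and Pdk1 lost the call with the length correction. Of 22 cholesterol synthesis genes 1 rose, Mvd by 1.25, which also lost it there, and of 39 lysosome and autophagy genes 1, Gabarapl1 by 1.45.

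Of 13 eicosanoid synthesis genes tested 6 rose and 1 fell, or 46.2% and 7.69% against 5.08% and 10.5% of all genes. Ptgs2, inducible cyclooxygenase, rose from 1.15 and 1.28 CPM to 21.8 and 29.6 CPM (log2 fold change 4.40, SE 0.21), Ptger2 by 2.41 and Ptges, prostaglandin E synthase, by 2.31. Ptgs2 was at 36.3 and 30.8 CPM with PM alone. Hpgds, prostaglandin D synthase, was lower by 1.13, and this call was lost with the length correction and without OI plus PM replicate 2. Among 11 matrix and plasminogen genes 3 rose and 3 fell, 27.3% each way: Mmp8, Mmp12 and Mmp19 were higher by 2.72, 1.72 and 1.67, and Timp2, Mmp9 and Plau lower by 1.85, 1.84 and 1.35. Mmp9 was at 182 and 165 CPM in vehicle cells, 482 and 440.1 CPM with PM alone and 49.7 and 47.4 CPM with OI plus PM. Of 12 immediate early genes 2 rose, or 16.7%, Fosl1 by 2.24 and Egr2 by 1.16, the latter not with scaling by total counts.

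Most antigen presentation genes were not called. Of 16 MHC class I genes tested 3 rose, 1 fell and 12 were not called, against 5.08% higher and 10.5% lower of all genes. The class I genes H2-D1 and H2-K1 rose by 1.39 and 1.08 and H2-Q6 by 2.09, while Nlrc5, which drives class I transcription, fell by 1.21. These are members of a family with near-identical copies, and H2-K1 lost the call with scaling by total counts, with the length correction and without OI plus PM replicate 2. Nlrc5 lost it with the length correction. In Acod1-/- cells the same contrast gave -0.17 (SE 0.26) for H2-Q6, so its rise was seen in WT cells only. For H2-D1, H2-K1 and Nlrc5 it gave 1.27, 0.84 and -0.81 there. The difference between the genotypes in H2-Q6 did not pass the adjusted p. Of 10 class II genes 4 were expressed enough to be tested, of which Cd74 fell by 1.21 from 4.58 and 4.72 CPM and 3 were not called. The difference between the classes was not tested.

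The largest increases in DEGs averaging 5 CPM or more were led by Il1f9 (chr2:24186476-24193568), an IL-36 cytokine. It was at 0.295 and 0.153 CPM in vehicle cells, from 11 and 6 counts, at 9.76 and 9.30 CPM with PM alone and at 65.4 and 77.1 CPM with OI plus PM (log2 fold change 8.30, SE 0.18, edgeR adjusted p = 1.13e-09). Slpi, a protease inhibitor, rose to 15.8 and 30.1 CPM (6.75, SE 0.43), and its difference from PM alone did not pass the test (-0.04, SE 0.24, edgeR adjusted p = 0.901). Tarm1, a receptor that activates myeloid cells, rose to 17.4 and 23.5 CPM (6.68, SE 0.32) against 4.60 and 5.69 CPM with PM alone. The glycine transporter Slc6a9 rose to 42 and 44.9 CPM (6.30, SE 0.15) and overlaps 3 other genes, and the carrier Slc16a9 rose to 19.3 and 15.7 CPM (5.02, SE 0.18). The remaining ones were Cxcl3, Nqo1, Slc7a11, Clec4n and Hspa1a.

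The same treatment was compared with vehicle in Acod1-/- cells, in 4 further libraries, to ask where the change depends on the genotype. Libraries labelled Acod1-/- still held Acod1 reads, with a log2 fold change of 4.37 for OI plus PM against vehicle, and counts per gene do not show whether these come from outside the deleted part. The test covered only the 10970 genes chosen by their level in WT libraries. Genes expressed mainly in Acod1-/- cells may be left out, which can raise the overlap. There were 1376 DEGs, 415 higher and 961 lower. Of these, 1261 were DEGs with the same direction in WT cells, which is 73.8% of the WT DEGs and 91.6% of the Acod1-/- DEGs, and none had the opposite direction.

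A direct test of the difference between the genotypes found 2 DEGs, 0.0182% of the genes tested, with 3 genes at an adjusted p of 0.05 or less and 895 at an unadjusted p under 0.05, and DESeq2 found 10. The 8 compared libraries alone gave 0, and scaling by total counts gave 1, which was neither of the 2. Plau, the urokinase (chr14:20836660-20843385), fell less in WT cells, from 1233 and 1355 CPM to 515 and 499.5 CPM, than in Acod1-/- cells, from 1652 and 1719 CPM to 324 and 312 CPM (difference of log2 fold changes 1.06, SE 0.10, edgeR adjusted p = 0.0167). Mmp8, a collagenase (chr9:7558456-7568485), rose less in WT cells, with a difference of -1.16 (SE 0.14, edgeR adjusted p = 0.0383). Serpinb9b, a protease inhibitor (chr13:33027416-33041884), rose by 3.56 in WT cells and by 4.52 in Acod1-/- cells, a difference of -0.97 (SE 0.11, edgeR adjusted p = 0.0383) just under the fold threshold. In Mmp8 and Serpinb9b the levels after OI plus PM were near each other between the genotypes, and those in vehicle cells differed. Without WT OI plus PM replicate 1 the count of DEGs was 129, without replicate 2 it was 4, and without WT vehicle replicate 1 or any of the 4 Acod1-/- libraries it was 0.

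**Figure D4:**
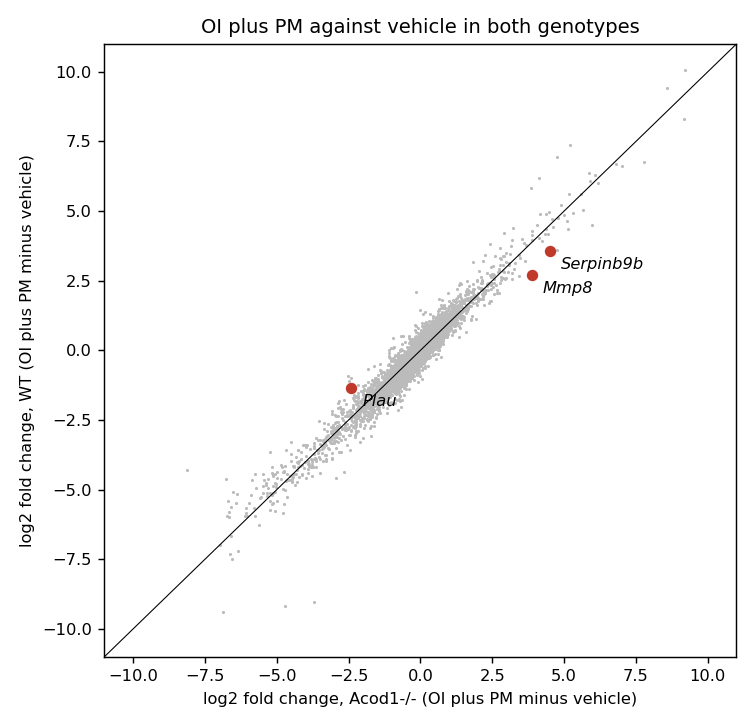
Log2 fold change of OI plus PM against vehicle in WT cells (y axis) and in Acod1-/- cells (x axis), with a point for each of the 10970 genes tested, 2 libraries for each genotype and treatment, and the line of equal change. The points follow the line, and Plau, Mmp8 and Serpinb9b, the 3 genes with the smallest p for a difference, are marked.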

How the data were processed

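RNA of 12 BMDM libraries was sequenced as single-end reads. Per the submitters’ processing notes the authors mapped them with STAR 2.5.3a to GRCm38 after FastQC 0.11.5, and the deposited values are raw featureCounts counts per gene, without normalization or filter. The annotation release and the handling of strand and of multiply mapping reads are not given in the sources used here, so genes with overlapping exons are uncertain (595 of 1709 DEGs). DESeq2 was the authors' test in their own analysis and an alternative here.

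The quasi-likelihood model of edgeR 4.0.16 (R 4.3.3), with TMM scaling, took all 12 libraries, with a mean for each of 6 groups and no replicate block. The main contrast was WT OI plus PM minus WT vehicle, the interaction set it against the same contrast in Acod1-/- cells, and OI plus PM minus PM alone came from the same fit. Genes entered with CPM above 1.5 in at least 2 of the 4 WT libraries compared, and Benjamini-Hochberg adjustment ran over these 10970. The filter read CPM before TMM scaling, printed CPM are TMM-scaled, and each SE was obtained from the log2 fold change and the F statistic (absolute change over root F). Counting intervals (95%, exact) cover counting error only. The test was checked on simulated counts.

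Symbols came from an identifier table (48349 of 48795 matched), positions and lengths from a GRCm38 annotation, and promoter windows from RefSeq (GRCm38.p6). Members of gene lists, and the letters searched, were chosen with earlier results of these data known, so counts of members describe the lists and no list was tested as a set. Named genes were those measured in the study, among DEGs averaging 5 CPM or more whose groups did not overlap the 10 that rose most and the 10 that fell most, up to 3 in each direction and the defining members of each list, and the 3 genes with the smallest interaction p. Other genes carry values for context only.

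The alternatives were DESeq2 1.42.0, edgeR on the compared libraries alone, RLE and total count scaling, filters of at least 10 counts in total or of CPM above 1.5 in all 4 or in 2 of 12 libraries, no fold threshold, glmTreat against a log2 fold change of 1, a replicate block, a lowess length correction (span 0.3), both together, and leaving out each library. For the interaction, leaving out Acod1-/- libraries was added after the data were seen. The study's supplementary tables were not used here, and a few list members are not reported here.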

Additional observations from a re-analysis of the deposited data

Results flagged for a closer look

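Each of these 3 genes differed between the genotypes in its response to OI plus PM by the direct test of the difference (edgeR, WT minus Acod1-/-). Plau differed by 1.06 on the log2 scale, Serpinb9b by -0.97 and Mmp8 by -1.16, with 2 libraries for each genotype and treatment. Plau fell by 1.35 in WT cells and by 2.41 in Acod1-/- cells, in both libraries of each. Mmp8 rose by 2.72 in WT cells and by 3.88 in Acod1-/- cells, from 56.0 and 57.1 CPM and from 26.4 and 31.1 CPM in vehicle cells. Serpinb9b was at 30.2 and 26.3 CPM in WT vehicle cells and at 14.8 and 16.2 CPM in Acod1-/- vehicle cells. No gene passed both thresholds when any of the 4 Acod1-/- libraries or WT vehicle replicate 1 was left out.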

How the results depend on the processing

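With DESeq2, RLE scaling, the 4 compared libraries alone, or the filter over 12 libraries, counts of DEGs in each direction stayed within 1.5 times those of the main analysis, and DESeq2 called 1715, of which 1705 were shared. The filter of at least 10 counts in total gave 2658 DEGs, 901 higher and 1757 lower. CPM above 1.5 in all 4 libraries gave 1164, of which 751 were lower, since genes near 0 in a group were not tested. Total count scaling moved the median of all genes to -0.20 on the log2 scale and gave 1934 DEGs, 375 higher and 1559 lower, against 557 and 1152. Without a fold threshold 7245 passed, 3677 higher and 3568 lower, and glmTreat gave 1047, 329 higher and 718 lower. Leaving out each library gave 1458 to 2338 DEGs, 455 to 863 higher and 1003 to 1475 lower, with the highest counts without OI plus PM replicate 1. A left-out library leaves 1 in its group, which is then assumed to vary like the others.

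Over 620 list and named genes and 14 settings, 73 calls were lost, 94 were gained and none reversed. These settings leave out glmTreat and the lack of a fold threshold. A gene that a filter left untested was not counted as lost there. For the interaction, with 2 DEGs in the main analysis, DESeq2 gave 10 DEGs, the 8 compared libraries alone 0, total count scaling 1, the length correction 5, that correction with the replicate block 5, and leaving out a library 0 to 129, the highest without WT OI plus PM replicate 1. Of the 2 DEGs, 1 was kept with either length correction and without WT vehicle replicate 2. The cause of these moves was not tested.

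Whether same-numbered libraries are paired is not stated. Their deviations correlated by 0.28 between WT vehicle and WT OI plus PM and by 0.25 between WT vehicle and PM alone. Between PM alone and WT OI plus PM the correlation was 0.76. Correlations that involve Acod1-/- groups ran from -0.43 to 0.27. All of these rest on 2 numbers only. With the replicate block 1716 genes were DEGs, 1706 of them shared, and 3 passed for the interaction. Over the 6 WT libraries with the block there were 1736 DEGs, 1686 of them shared. Against PM alone, all 23 NRF2 target genes stayed higher with either block (largest edgeR adjusted p 0.0227 and 0.0107). The share of all genes that passed with these blocks is not given here. Of 8 single genes compared with PM alone, Cxcl1 alone changed its call, at an edgeR adjusted p of 0.0358 over 12 libraries and 0.0546 over 6. The block over the WT libraries, and both blocks against PM alone, were chosen after seeing the data. At 33616577 to 36817898 counts per compared library, genes under 1.5 CPM in 3 or more of the 4 were not tested.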
